A study of Mus musculus with 6 samples.

Results

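The EGR, NR4A, IER and ZFP36 early genes were described in haematopoietic stem cells of mice that carry 1 altered allele of Mecom, the zinc finger factor also called EVI1. The members were 10 genes named by symbol, Egr1, Egr2, Egr3, Nr4a1, Nr4a2, Ier2, Ier3, Ier5, Zfp36 and Zfp36l2, of 18465 gene rows. Values were found for 9 of them, and Egr2 was not analysed here. The genes were selected on their TPM values in these same 6 libraries, as early genes lower in MecomWT:R751W than in WT, so that difference is given as a description without a test. RNA came from SLAM-LSK cells of C57BL/6 bone marrow, which lack lineage markers and CD48 and carry CD150, Sca-1 and c-Kit. One group of 3 libraries was wild type (WT) and the other group of 3 was heterozygous for the R751W substitution (MecomWT:R751W). No other allele or agent is named for either group, and the age and sex of the mice are not stated in the labels. The replicates are labelled biological, but no label ties each to its own mouse, so the spread below, and every p, measures these samples and may be technical. Library values are listed in the order of replicates 1, 2 and 3.

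Immediate early genes are switched on within minutes of a signal by factors that are already present in the cell, such as SRF with its ternary complex partners and CREB, which kinases of the RAS to ERK pathway activate. EGR proteins are zinc finger transcription factors that bind GC-rich DNA, and NR4A proteins are nuclear receptors that act without a classical ligand. IER genes encode small proteins of varied function, and ZFP36 proteins bind AU-rich elements in messenger RNA and recruit the machinery that removes its poly(A) tail. In stem cells of the bone marrow, EGR1 and NR4A receptors are known as restraints on cell division, and Zfp36l2 is known to be needed to form definitive blood stem cells.

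Levels are in TPM, which are read counts per gene length brought to a common total. The table implies totals of 10427533 to 12378149 reads per library. Protein-coding genes took 25.9% to 30.1% of TPM, with the lowest shares in replicate 2 of each genotype. Genes of the sort gate were detected in every library, with Kit at 137 to 198 TPM. Ly6a, which encodes Sca-1, was at 8.64 to 13.2 TPM. Slamf1, which encodes CD150, was at 9.5 to 16.5 TPM. Its log2 fold change was 0.39 (SE 0.17), higher in MecomWT:R751W, and the genotypes overlapped. Ptprc, which the gate as given does not name, was at 54.5 to 82.9 TPM. Cd48, which the gate selects against, was at 1.02 to 2.18 TPM in WT and 2.27 to 4.1 TPM in MecomWT:R751W, without overlap. Over the 16655 genes whose mean reached 1 TPM, limma's two-sided test on log2(TPM + 1) called 0 at an adjusted p of 0.05, and 995 had an unadjusted p under that value.

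On average Egr1, Nr4a1 and Nr4a2 stood in MecomWT:R751W at 0.481, 0.48 and 0.492 of their WT level, Ier2, Ier3 and Zfp36 at 0.651, 0.611 and 0.71, and Zfp36l2 at 0.963. In 8 of the 9 genes the genotypes overlapped. The exception was Ier3, wholly lower in MecomWT:R751W as were 4.70% of all tested genes. MecomWT:R751W replicate 1 lay above WT replicate 3 in 8 of 9 members and in 52.0% of all tested genes.

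The 9 genes covered a wide range of levels. Zfp36l2 was the most abundant, at a mean of 369 TPM over the 6 libraries, and its lowest value of 320 TPM lay above the highest value of every other member. Ier2 at 163 TPM, Egr1 at 156 TPM and Zfp36 at 146 TPM followed, and their ranges over libraries overlapped widely. Nr4a1 at 65.9 TPM, Nr4a2 at 17.5 TPM and Ier5 at 13.2 TPM came next, each overlapping its neighbour. Ier3 was at 6.21 TPM and Egr3 at 1.0 TPM, and the highest Egr3 value lay below the lowest value of every other member. Ranked among protein-coding rows, Egr1 stood at percentile 98.5 and Egr3 at percentile 9.23. In bulk samples a gene read in fewer cells and a gene read at less RNA per cell cannot be told apart.

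**Figure D1:**
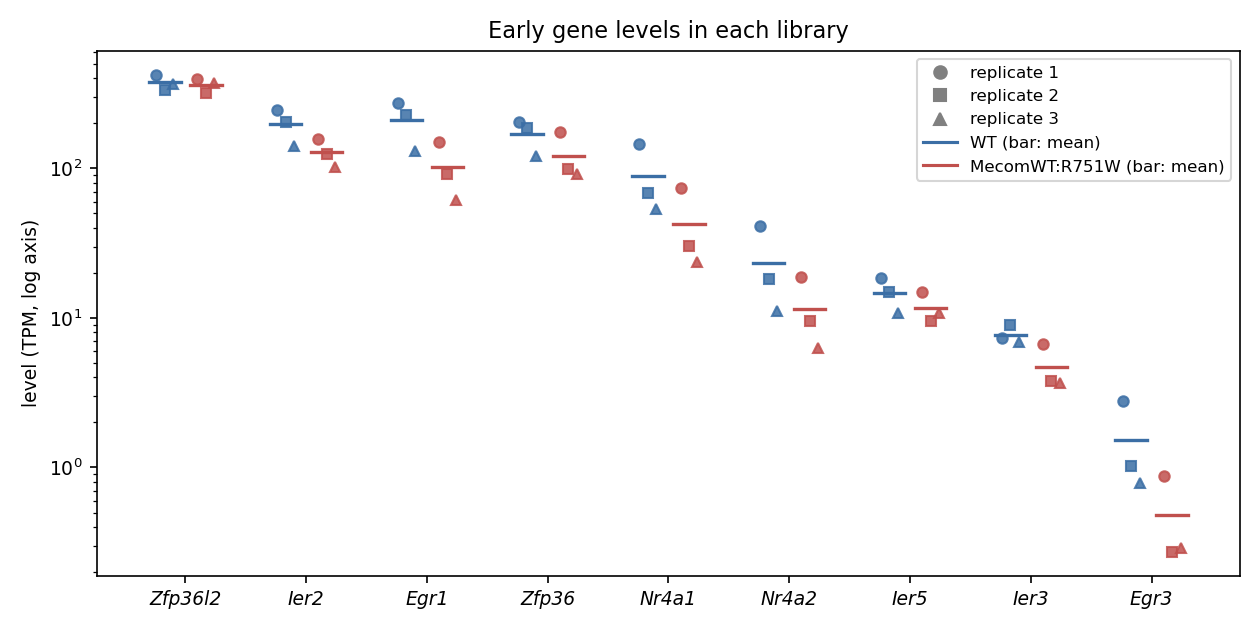
Level of each gene in each library, in TPM on a log axis, with genes ordered by mean level. Symbols mark replicates 1, 2 and 3, colours the genotypes and bars the mean of 3 libraries. Zfp36l2 sits between 320 and 424 TPM in both genotypes, while Nr4a1 runs from 145 TPM in WT replicate 1 to 23.7 TPM in MecomWT:R751W replicate 3.

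Egr1 occupies bases 34861207 to 34864956 of chromosome 18 on the GRCm38 assembly, used for all positions here. The WT libraries held Egr1 at 273, 229 and 130 TPM and the MecomWT:R751W libraries at 151, 92.3 and 61.2 TPM. MecomWT:R751W replicate 1 was above WT replicate 3, so the genotypes overlapped, and the other 2 MecomWT:R751W libraries were below all WT libraries. The means were 211 ± 73.0 and 101 ± 45.4 TPM (SD, n = 3 each), a log2 fold change of -1.08 (SE 0.30). Between 1580 and 6286 reads lay behind each Egr1 value, so counting error is small beside this spread.

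Egr3, whose fingers recognise the same kind of site as those of EGR1, lies on chromosome 14 from 70077317 to 70082613. Its level was 2.77, 1.03 and 0.789 TPM in WT and 0.872, 0.273 and 0.288 TPM in MecomWT:R751W. WT replicate 1 was the highest library and MecomWT:R751W replicate 1 reached the range of the other WT libraries. Only 9 to 86 reads lay behind each value. Exact Poisson 95% intervals, which cover counting error alone, were 2.22 to 3.43 TPM in WT replicate 1 and 0.125 to 0.519 TPM in MecomWT:R751W replicate 2. The log2 fold change was -0.72 (SE 0.29) with a pseudocount of 1, -1.45 with 0.1 and -0.24 with 5, so its size at this level is set largely by the pseudocount. Egr3 passed the filter of 1 TPM through its WT libraries, with a mean of 1.53 TPM there and 0.478 TPM in MecomWT:R751W.

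Nr4a1, the orphan receptor NUR77, lies on chromosome 15 from 101253902 to 101274795. WT libraries gave 145, 68.8 and 53.5 TPM, against 74.0, 30.5 and 23.7 TPM in MecomWT:R751W. Replicate 1 was the highest library in both genotypes, and MecomWT:R751W replicate 1 lay above WT replicates 2 and 3. The means were 89.1 ± 49.0 and 42.7 ± 27.3 TPM (SD, n = 3 each), a log2 fold change of -1.08 (SE 0.38). Without WT replicate 1 it was -0.67.

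Nr4a2, the related receptor NURR1, lies on chromosome 2 from 57106830 to 57124003. It was at 41.1, 18.1 and 11.1 TPM in WT and at 18.7, 9.55 and 6.33 TPM in MecomWT:R751W. The order of the libraries was that of Nr4a1, and the genotypes overlapped in the same way. The log2 fold change was -0.89 (SE 0.40), -0.40 without WT replicate 1 and -0.57 when MecomWT:R751W replicate 3 was left out. Nr4a1 stood at 3.19 to 4.81 times the level of Nr4a2 in the 6 libraries, a narrow range beside that of either gene.

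Windows of 250 bases before a RefSeq transcript start of each receptor gene are shown because both hold repeats of TGACG, the core that CREB family factors bind, and a GCGNGGGCG word of the kind that EGR proteins bind. Matches on either strand are in capitals, so that CGTCA marks TGACG on the other strand and CGCCCCCGC marks GCGNGGGCG there. The Nr4a1 window is chr15:101266596-101266845 on the plus strand and the Nr4a2 window chr2:57124004-57124253 on the minus strand, both from RefSeq on GRCm38.p6, 5′ to 3′. The Nr4a2 window adjoins the 5′ end of the gene's span, while the Nr4a1 window lies inside the span, before an internal transcript start.
Nr4a1: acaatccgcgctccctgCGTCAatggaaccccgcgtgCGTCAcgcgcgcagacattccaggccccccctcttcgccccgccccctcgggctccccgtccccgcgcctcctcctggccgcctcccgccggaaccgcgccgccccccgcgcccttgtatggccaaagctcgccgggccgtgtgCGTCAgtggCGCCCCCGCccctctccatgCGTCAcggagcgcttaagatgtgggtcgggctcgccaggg
Nr4a2: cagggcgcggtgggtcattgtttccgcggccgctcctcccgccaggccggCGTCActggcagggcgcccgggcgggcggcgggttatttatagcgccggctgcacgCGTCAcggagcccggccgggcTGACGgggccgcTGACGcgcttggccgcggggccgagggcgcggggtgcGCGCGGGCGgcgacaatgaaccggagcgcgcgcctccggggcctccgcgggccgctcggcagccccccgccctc
TGACG occurs 4 times in each window, counted on both strands. At least 1 match was present in 27.8% of 9262 promoters of tested protein-coding genes over the same length, and 4 or more in 0.367%. GCGNGGGCG occurs 1 time in each, against 8.8% of promoters with a match. G and C made up 74.4% of the Nr4a1 window and a larger share of the Nr4a2 window, where the median over promoters was 59.6%. The shares of promoters were not matched for this composition. How rare such matches are among windows as rich in G and C was not tested. The full palindrome TGACGTCA and the GATA-type core AGATAA had no match in either window, and 2.73% and 5.82% of promoters held them. A match of letters is not a measured site.

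Ier2 lies on chromosome 8 from 84661331 to 84662852 and encodes a small nuclear protein. It was at 245, 204 and 142 TPM in WT and at 158, 125 and 102 TPM in MecomWT:R751W. As for Egr1, only MecomWT:R751W replicate 1 reached into the WT range. The log2 fold change was -0.60 (SE 0.20).

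Ier3, also named IEX-1 and linked to survival under stress, lies on chromosome 17 from 35821713 to 35822911. Its values were 7.29, 8.93 and 6.9 TPM in WT, and 6.69, 3.76 and 3.67 TPM in MecomWT:R751W. Ier3 was the member whose genotypes did not overlap, and since this contrast chose the members nothing is read from that count. The gap was narrow, since the 95% counting intervals of the nearest libraries, 5.97 to 7.95 TPM in WT replicate 3 and 5.69 to 7.82 TPM in MecomWT:R751W replicate 1, overlapped. The log2 fold change was -0.64 (SE 0.21). The table implies a length of 3272 bases for Ier3, more than its RefSeq span of 1199 bases, so its level per length cannot be set firmly against those of the other genes. The ratio between libraries does not depend on that length.

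Ier5, which encodes a partner of the heat shock factor HSF1, lies on chromosome 1 from 155096367 to 155099636. It was at 18.6, 14.9 and 10.8 TPM in WT and at 14.8, 9.56 and 10.8 TPM in MecomWT:R751W. The ranges overlapped, with a log2 fold change of -0.30 (SE 0.21). Leaving out WT replicate 1 moved it to -0.13 and leaving out WT replicate 3 to -0.50. Leaving out MecomWT:R751W replicate 2 gave -0.18, and replicate 1 gave -0.47.

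Zfp36, which encodes tristetraprolin, lies on chromosome 7 from 28376784 to 28379228. It was at 205, 185 and 122 TPM in WT and at 174, 98.6 and 91.2 TPM in MecomWT:R751W. MecomWT:R751W replicate 1 lay within the WT range and the other 2 lay below it. The log2 fold change was -0.52 (SE 0.23), and -0.81 without MecomWT:R751W replicate 1. Before its RefSeq start lies a CArG box, the word that SRF binds, shown in capitals within 30 bases on the minus strand of chr7:28379267-28379296 in GRCm38.p6.
Zfp36: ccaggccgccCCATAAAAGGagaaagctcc
All 250 bases of this window lie within GENCODE exons, counted without regard to gene, strand or transcript, so the box is inside annotated exon sequence. The box starts 58 bases before the RefSeq start, and 1.16% of the promoters held one within 250 bases. Of the 9 genes, 5 had an entry in the promoter table, and the windows of Ier3 and Ier5 held none of the words searched. The entries for Egr1, Egr3, Ier2 and Zfp36l2 were not among them.

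Zfp36l2, the paralog of Zfp36, lies on chromosome 17 from 84183924 to 84187947 and had different values. It was at 424, 337 and 366 TPM in WT and at 395, 320 and 370 TPM in MecomWT:R751W. The genotypes overlapped almost fully, and the log2 fold change was -0.05 (SE 0.14), turning to 0.04 when WT replicate 1 was left out and to 0.03 when MecomWT:R751W replicate 2 was. Zfp36 accordingly stood at 0.483, 0.549 and 0.334 times the level of Zfp36l2 in WT and at 0.44, 0.308 and 0.246 times in MecomWT:R751W. These ratios overlapped between the genotypes. The family relative Zfp36l1 was at 13.6 to 19.5 TPM in WT and 10.6 to 15.3 TPM in MecomWT:R751W, a log2 fold change of -0.22 (SE 0.18, adjusted p = 1.0 by limma). It was -0.08 without WT replicate 1 and -0.05 when MecomWT:R751W replicate 2 was left out.

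ZFP36 proteins bind the heptamer UAUUUAU, written TATTTAT in DNA, and the 3′ untranslated regions of some of these genes carry it. Representative sites are shown from GENCODE M21 transcripts, 5′ to 3′, with the central heptamer in capitals. The Ier3 stretch holds a further copy, left in lower case.
Ier3: tctaattaaTATTTATgtatttatg
Zfp36: tgggcccttTATTTATgacgacttt
Zfp36l2: tgtatgtaaTATTTATttcattaat
Nr4a2: ttttgtgccTATTTATgaataaata
Ier3 had 4 copies in 613 bases, Zfp36 3 in 774 bases, Zfp36l2 3 in 1822 bases and Nr4a2 1 in 1326 bases. The other 5 genes had 0 copies. Among 5854 tested genes with a region of 543 to 2645 bases, the range of the 10 named genes, 29.9% had at least 1 copy and 8.6% had 2 or more. Of the 9 genes, 4 had at least 1 copy and 3 had 2 or more, and the difference from other genes was not tested.

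In each genotype most of the members, but not all, shared the same order of the libraries. In WT, replicate 1 was the highest for 8 of 9 genes, with Ier3 the exception, and replicate 3 the lowest for 8, with Zfp36l2 the exception. In MecomWT:R751W, replicate 1 was the highest for all 9 genes, and replicate 3 was the lowest for 6. Replicate 1 was also the highest library in 51.7% of all tested genes in WT, so its high position there is partly common to the table. In MecomWT:R751W, replicate 1 was the highest in 43.7% of all tested genes and replicate 3 in 43.6%. Over all tested genes replicate 3 was the lowest library in 18.5% of genes in WT and 16.9% in MecomWT:R751W, and replicate 2 in 64.1% and 64.8%. The low position of replicate 3 in these genes is thus not the position of that library over the table as a whole. Centred on each gene's own mean, the median of the members was 0.65, 0.31 and -0.08 in WT and 0.15, -0.54 and -0.60 in MecomWT:R751W.

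**Figure D2:**
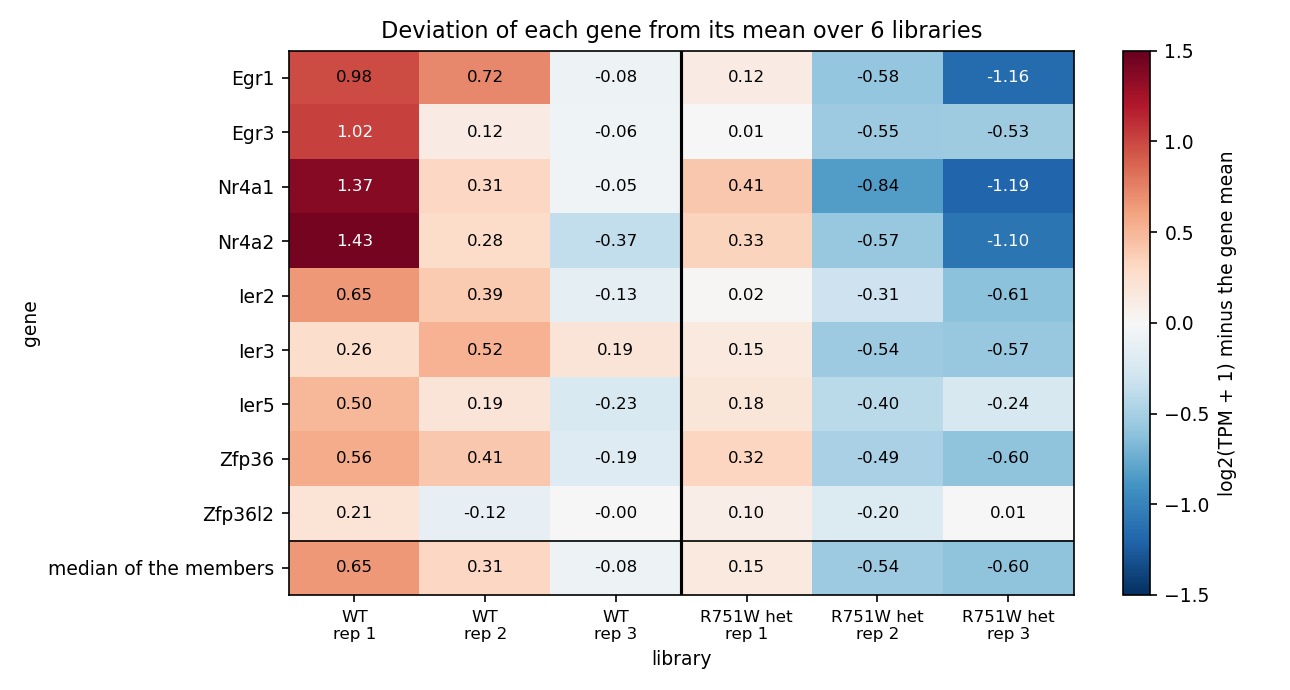
Log2(TPM + 1) of each gene in each library minus that gene's mean over the 6 libraries, with the median of the 9 genes in the bottom row. "R751W het" stands for MecomWT:R751W and "rep" for replicate. The highest cells are those of Nr4a1 and Nr4a2 in WT replicate 1, at 1.37 and 1.43, and the row of Zfp36l2 stays between -0.20 and 0.21.

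The spread within a genotype was wide. The SD of log2(TPM + 1) among libraries of 1 genotype was 0.82 for Nr4a2, 0.79 for Nr4a1, 0.60 for Egr1, 0.45 for Zfp36, 0.36 for Ier2 and 0.33 for Ier5, against a median of 0.16 over 6064 protein-coding genes averaging 10 TPM or more. These 6 genes lay above the 95th percentile of that distribution, which was 0.28. Nr4a1 and Nr4a2 each stood at percentile 99.9. Zfp36l2, at 0.16, stood at percentile 51.5. Ier3 at 0.31 and Egr3 at 0.46 averaged under 10 TPM, outside the range of levels of that distribution.

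**Figure D3:**
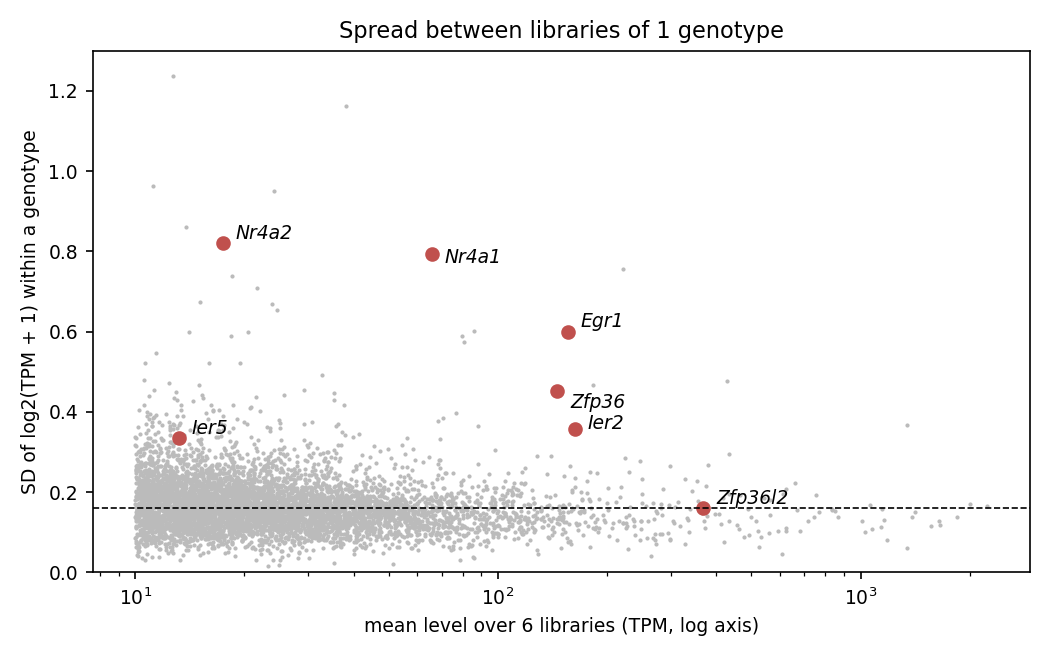
SD of log2(TPM + 1) among the 3 libraries of a genotype, pooled over the 2 genotypes, against mean level in TPM on a log axis. Grey points are 6064 protein-coding genes averaging 10 TPM or more, red points are members and the dashed line is the median of 0.16. Nr4a2 at 0.82 and Nr4a1 at 0.79 are the highest members, and Zfp36l2 lies on the median.

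All 9 log2 fold changes were below 0, where 51.0% of all tested genes were. They ran from -1.08 to -0.05 with a median of -0.64, and over all tested genes the median was -0.0037. Without Egr3 the median of the other 8 was -0.62. Without WT replicate 1 the median of the members was -0.42, and without MecomWT:R751W replicate 1 it was -0.88. With TPM rescaled over protein-coding rows, Egr1 stayed at -1.08 and Ier2 at -0.60, and Nr4a1 stood at -1.10.

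**Figure D4:**
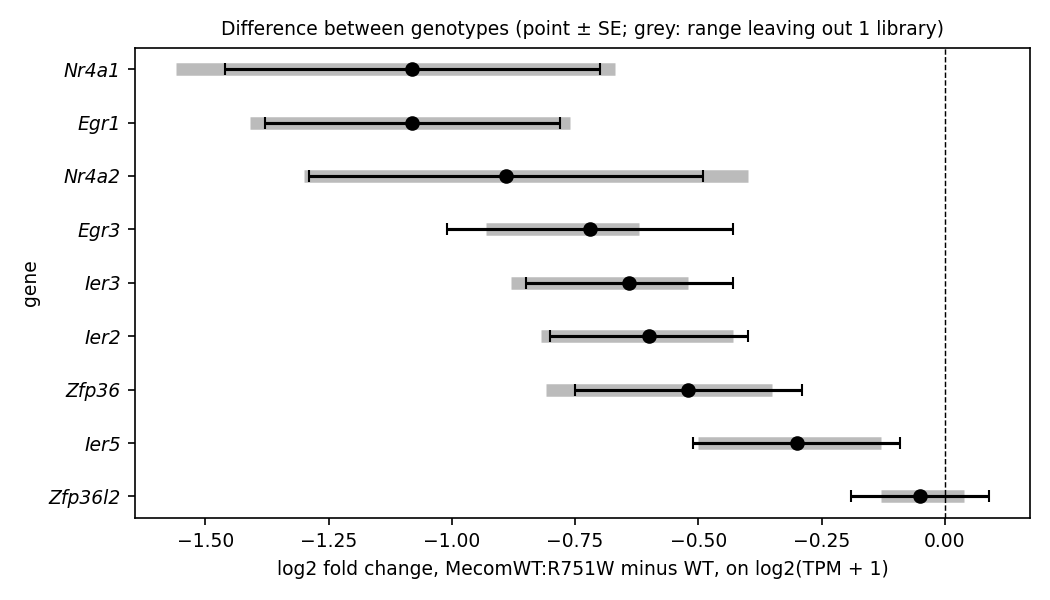
Log2 fold change of each gene, MecomWT:R751W minus WT, on the log2(TPM + 1) scale. Points are fitted values with bars of 1 SE, and grey bands span the values obtained by leaving out 1 library at a time. The band of Nr4a2 reaches from -1.30 to -0.40, and that of Zfp36l2 crosses 0.

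Other early response genes formed a list of 61, chosen with earlier results of these data known, of which 55 were tested. Limma called 0.00% of all 16655 genes at an adjusted p of 0.05 and 0 of these 55. Of them 52 were below 0, with a median log2 fold change of -0.35, or -0.22 without WT replicate 1, and 19 had an unadjusted limma p under 0.05, all lower in MecomWT:R751W. That is 34.5% of the list, where 3.23% of all tested genes passed in that direction and 2.74% in the other. In 9 of the 55, or 16.4%, the genotypes did not overlap, with the MecomWT:R751W values lower, and in 0 they lay wholly higher. Over all tested genes 4.70% lay wholly lower and 4.50% wholly higher. Since the list was chosen with earlier results known, these shares are a description, and no enrichment is read from them. The list's median SD within a genotype was 0.34, so its genes also varied between libraries. Spry2 (0.07), Spred1 (0.06) and Cited2 (0.11) were the 3 above 0, named after their values were seen.

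The genes of smallest p in that list were Dusp2, Ppp1r15a, Maff, Klf2, Hes1 and Gadd45g. Dusp2 encodes a phosphatase that acts on MAP kinases and was at 61.1, 53.3 and 49.0 TPM in WT and 39.2, 27.8 and 33.2 TPM in MecomWT:R751W (log2 fold change -0.70, SE 0.15, adjusted p = 0.236 by limma). Its genotypes did not overlap, and over rescaled protein-coding rows it passed limma's threshold (adjusted p = 0.0382). The adjusted limma p was 0.459 without WT replicate 1 and 0.512 without WT replicate 2. Ppp1r15a, which restores translation after stress as GADD34, was at 336, 220 and 169 TPM in WT and 170, 103 and 98.4 TPM in MecomWT:R751W. Its adjusted limma p was 0.361, and 0.0295 without MecomWT:R751W replicate 1. It was 0.596 without WT replicate 1 and 0.697 without WT replicate 2. Hes1, a repressor that acts downstream of Notch, was at 35.4, 12.8 and 5.86 TPM in WT and 6.66, 4.14 and 2.2 TPM in MecomWT:R751W, with a log2 fold change of -1.59 and, without WT replicate 1, -0.96. Maff and Gadd45g did not overlap between the genotypes, with log2 fold changes of -0.76 (SE 0.21) and -0.69 (SE 0.22), while Klf2 did, at -0.97 (SE 0.27).

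Nr4a3, the remaining receptor of the NR4A family, was at 5.21, 1.87 and 0.948 TPM in WT and 1.8, 0.56 and 0.828 TPM in MecomWT:R751W. Replicate 1 was again the highest library of each genotype. The log2 fold change was -0.71 (SE 0.36, adjusted p = 0.915 by limma), -0.24 without WT replicate 1 and -1.08 without WT replicate 3. NAB proteins bind EGR factors and repress their targets. Nab2, itself a known target of EGR1, stood at -0.26 (SE 0.17), or -0.40 without WT replicate 1, and Nab1 at -0.03 (SE 0.15).

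Genes that act before the early genes stood closer to 0. Among 17 genes of SRF, its ternary complex partners, MRTF, MEF2, CREB and their coactivators, 11 were below 0 with a median of -0.06, and none had an unadjusted limma p under 0.05. Srf stood at 0.04 (SE 0.16), turning to -0.03 without WT replicate 2. Elk1 stood at 0.12 (SE 0.18), Elk3 at -0.16 (SE 0.15), Elk4 at -0.12 (SE 0.15) and Creb1 at 0.09 (SE 0.13). Of 21 genes from RAS to ERK and the p38 branch, 13 were below 0 with a median of -0.02. Messenger RNA levels do not report the activity of these kinases and factors.

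Genes on the far side were likewise near 0. Of 19 genes linked to deadenylation and messenger RNA decay, 7 were below 0 with a median of 0.03. The list also holds Elavl1, Hnrnpd and Khsrp, which encode RNA-binding proteins. Of 13 genes linked to EGR1 or NR4A1 action in stem cells, 7 were below 0 with a median of -0.01. The cell cycle inhibitor Cdkn1c was at 9.12, 10.2 and 13.9 TPM in WT and 9.0, 7.14 and 7.73 TPM in MecomWT:R751W (log2 fold change -0.42, SE 0.18, adjusted p = 0.797 by limma), and without WT replicate 3 the difference was -0.25. Cdkn1a, which encodes p21, was highest in WT replicate 1 at 7.3 TPM and lay between 1.14 and 3.37 TPM in the others, and its log2 fold change of -0.62 (SE 0.33) became -0.21 without that library.

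**Figure D5:**
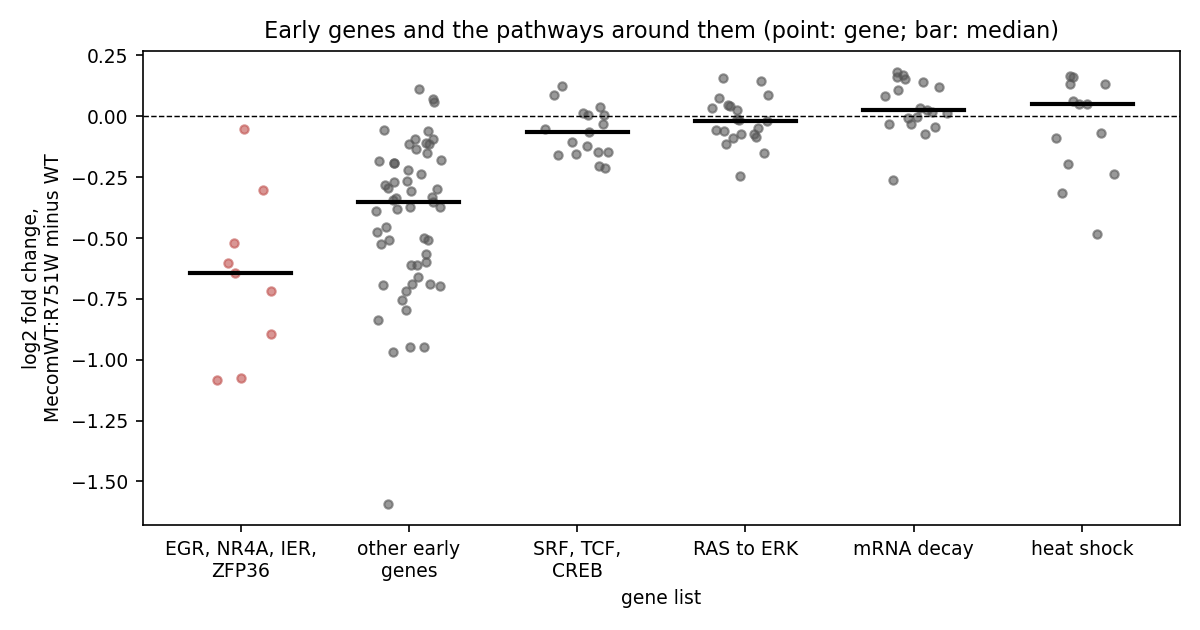
Log2 fold change, MecomWT:R751W minus WT on the log2(TPM + 1) scale, of each tested gene in 6 lists. Each point is a gene and each bar the median of its list, and TCF stands for the ternary complex factors. The medians are -0.64 for the members, -0.35 for other early genes, -0.06 for SRF, ternary complex and CREB genes, -0.02 for RAS to ERK, 0.03 for mRNA decay and 0.05 for heat shock.

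Among 6057 other protein-coding genes averaging 10 TPM or more, the profiles nearest to the median of the members over the 6 libraries were those of Pim3, Ing2, Ccnl1, Zc3h12a, Csrnp1, Adgre5, Kdm6b, 0610012G03Rik, Snrpc and Yrdc. Their root-mean-square difference from it was 0.12 to 0.17 on the log2 scale, where a gene with no variation would differ by 0.45. Csrnp1 and Kdm6b belong to the list of other early genes. Pim3, a kinase, was at 20.4, 13.5 and 12.6 TPM in WT and 15.5, 8.61 and 7.18 TPM in MecomWT:R751W. Zc3h12a, which encodes the RNase Regnase-1, was at 27.7, 19.5 and 17.3 TPM in WT and 17.3, 9.57 and 12.0 TPM in MecomWT:R751W. Nearest to Egr1 itself were Ppp1r15a, Junb, E030018B13Rik, Tnfaip3 and Dhrs11, at differences of 0.23 to 0.31, where a gene with no variation would differ by 0.73. Both reference profiles hold the genotype difference for which the members were chosen. The lower values of these nearest genes in MecomWT:R751W therefore follow from the search and are no separate result.

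Most of the members are compact genes. RefSeq spans ran from 1199 bases for Ier3 to 20894 for Nr4a1, and all 9 were below the median of 22486 bases over 11394 tested protein-coding genes. A span under that of Nr4a1 was found in 47.5% of those genes. Spans under 6000 bases were found in 7 of the 9 and in 15.4% of those genes. Ier2 and Ier5 have 1 exon, and their implied lengths of 1522 and 3270 bases equal their RefSeq spans.

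Markers of other cells and of handling were read beside these values. Of 16 heat shock and chaperone genes 13 were tested, 6 were below 0, the median was 0.05 and none was called. Their summed level was 3560 to 4310 TPM in WT and 3770 to 4120 TPM in MecomWT:R751W, and no value is given for Hspa1a, Hspa1b and Hspb1. Within it, Hspa5, a chaperone of the endoplasmic reticulum, was at 347, 281 and 249 TPM in WT and 230, 196 and 196 TPM in MecomWT:R751W (log2 fold change -0.48, SE 0.14, adjusted p = 0.529 by limma). Of 10 megakaryocyte and platelet markers 8 were tested and all 8 were below 0, with a summed level of 146 to 198 TPM in WT and 118 to 172 TPM in MecomWT:R751W. Their median log2 fold change was -0.21, and the lowest, -1.69, was that of Thbs1. Thbs1 was at 46.6, 15.5 and 3.29 TPM in WT, highest in replicate 1, and at 3.05 to 4.17 TPM in MecomWT:R751W. Pf4, of the same list, was at 48.6, 44.7 and 48.5 TPM in WT and 54.3, 43.8 and 35.8 TPM in MecomWT:R751W. Its highest library was MecomWT:R751W replicate 1. Of 15 monocyte, macrophage and neutrophil markers 7 were tested and 6 were below 0, with sums of 87.1 to 109 and 74.2 to 94.7 TPM. Of 10 erythroid markers 8 were tested and 7 were above 0, with sums of 315 to 385 and 306 to 377 TPM. The sums weigh abundant genes most. The mean of log2(TPM + 1) over the 8 erythroid markers was 2.72, 2.65 and 2.32 in WT and 2.96, 3.2 and 2.86 in MecomWT:R751W, without overlap. Over the 8 megakaryocyte and platelet markers it was 3.85, 3.47 and 3.39 in WT and 3.33, 3.04 and 3.24 in MecomWT:R751W. These did not overlap either, and were lower in MecomWT:R751W. Over the 7 monocyte, macrophage and neutrophil markers it was 2.48 to 2.68 and 2.27 to 2.61, with overlap. Of 15 T, NK and B cell markers 4 were tested and all 4 were above 0, with sums of 13.9 to 15.5 and 22.4 to 26.9 TPM. The sums did not overlap, nor did the means of log2(TPM + 1), at 1.96 to 2.07 and 2.4 to 2.72. Their smallest adjusted limma p, 0.0856, was also the smallest over all tested genes. Endothelial and stromal markers summed to 34.5 to 40.4 and 36.8 to 47.7 TPM. The part of these cells and of handling in the values of the members was not tested.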

How the data were processed

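SLAM-LSK cells from 3 WT and 3 MecomWT:R751W samples were profiled by RNA sequencing. The authors deposited 1 table of TPM with 1 column per library, each summing to 1000000. The submitters' processing notes name the build mm10 and the tool DESeq2, with no role stated. The labels list several library kits. The kit chosen, the aligner, the counter and its strand setting are items not given in the sources used here. RefSeq on GRCm38.p6, the same assembly, held all 18465 symbols. Within each gene the TPM values stand in whole-number ratios once 1 factor per library is divided out, within 0.001 reads for 100.0% of rows, and this gave the implied reads. Rows hold at least 18 of them over the 6 libraries.

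Values were tested as log2(TPM + 1) by limma 3.58.1, run in R 4.3.3 with its trend option, over genes averaging 1 TPM or more. All 6 libraries entered with genotype as the only term, and p-values had Benjamini-Hochberg adjustment. The procedures were tested on simulated data. For limma these had less spread and larger changes than most of the members, so they do not show how it performs for such genes. Log2 fold changes on this scale understate the change of low genes. The members and lists were chosen with earlier results of these data known. All members were named whatever their values, as were Nr4a3, Zfp36l1, Nab1, Nab2, Srf, Elk1, Elk3, Elk4 and Creb1 among relatives and regulators. From each list the genes of smallest unadjusted p, up to 6, could be named. The genes most like the members were the 10 with the smallest root-mean-square difference of centred log2 values, and the 5 for Egr1. Tables came from pandas 2.3.3 and numpy 2.4.6 under Python 3.11.15, and figures from matplotlib 3.10.9.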

Additional observations from a re-analysis of the deposited data

How the results depend on the processing

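Alternatives changed the pseudocount, the filter, the scaling and the replicate block, and left out each library in turn. Of 113 values of members under them, 111 were below 0, and the 2 above belonged to Zfp36l2. The median of the members ran from -0.88 to -0.42 when single libraries were left out. Genes called over the whole table, 0 as reported, were 2 with a minimum mean of 5 TPM, 17 over rescaled protein-coding rows and 0 to 13 when single libraries were left out (2 without WT replicate 2, 8 without WT replicate 3, and 13 when MecomWT:R751W replicate 1 was dropped). When single libraries were left out, 4 list medians changed sign: heat shock ran from -0.07 to 0.11, RAS to ERK from -0.10 to 0.05, mRNA decay from -0.04 to 0.09 and the genes linked to EGR1 or NR4A1 from -0.08 to 0.07. Elk1 ran from 0.06 to 0.26, Elk3 from -0.26 to -0.04, Elk4 from -0.21 to -0.04 and Creb1 from 0.04 to 0.15. Leaving out single libraries moved Nab1 from -0.12 to 0.06, above 0 (0.03) without WT replicate 1 and (0.06) when MecomWT:R751W replicate 2 was left out. Srf turned to -0.03 without WT replicate 2 and to -0.01 when MecomWT:R751W replicate 2 was left out. The cause was not tested. Egr3 stood at -1.19 over rescaled protein-coding rows and fell under the filter with size factors or without WT replicate 1 or 2. With the replicate block, limma called 0 genes (smallest adjusted p = 0.243), and 1616 had an unadjusted p under 0.05 in place of 995. Deviations from the genotype means correlated at 0.14, 0.09 and 0.08 across genes between libraries numbered 1, 2 and 3. Of the libraries, 6 of 6 correlated best with their own number. In each genotype the 3 deviations of a gene sum to 0, so these matches depend on each other. No pairing is read from them, and the labels give none. Depth limits Egr3, with 9 reads in its lowest library.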
